A study of Saccharomyces cerevisiae with 12 samples.

Results

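The 31 RNAs described here were 29 box H/ACA small nucleolar RNAs (snoRNAs) of budding yeast, Saccharomyces cerevisiae, with RPR1, the RNA of RNase P, and NME1, the RNA of RNase MRP. They were taken by name from the 7126 features of each count table, and all 31 were found. The libraries came from RNA co-immunoprecipitation after UV cross-linking, for a control without a tag (strains HKY36/HKY381), for Npl3 (strain HKY157) and for Mex67 (strain HKY1266). Npl3 is a nuclear mRNA-binding protein and Mex67 is the mRNA export receptor. Cells of all groups were grown in rich medium at 25 °C, and each culture was divided and kept for 30 min at either 25 °C or 42 °C. There were 6 groups, each with 2 libraries. The labels do not say which no-tag library came from which of the strains named for that control, which of c-myc and GFP-Trap beads was used for which sample, or how the proteins were tagged. Total counts ran from 87741 in no-tag replicate 1 at 42 °C to 1140349 in Npl3 replicate 2 at 25 °C.

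Box H/ACA snoRNAs are nuclear RNAs that pair with a target RNA and direct the conversion of chosen uridines to pseudouridine. They work in a particle with the pseudouridine synthase Cbf5 and the proteins Nhp2, Nop10 and Gar1, and most targets lie in ribosomal RNA. RNase P trims the 5′ ends of precursor tRNAs, and RNase MRP, which shares most of its proteins, cuts precursor ribosomal RNA. Of the 31 RNAs, 6 guide pseudouridylation of 18S rRNA, 17 guide that of 25S rRNA, 4 have targets in both, and snR81 has targets in 25S rRNA and in the U2 snRNA. The snoRNA snR30 guides no known modification and is needed for the processing of 18S rRNA. The features were 161 to 1004 bases long, with a median of 204, on 12 chromosomes of build R64. Fragments of 200 bp were aimed at in the library preparation, close to that median, and what this did to the recovery of the shorter RNAs was not tested.

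No sequence is used here for these RNAs, and coordinates are given for those on which the results turn. SnR30 lies at chrXII:198784-199389, and snR37, a guide for 25S rRNA, at chrX:228094-228479. SnR86 and snR84, also guides for 25S rRNA, lie at chrXIII:762110-763113 and chrIV:1492477-1493026. SnR49, with targets in 18S and 25S rRNA, lies at chrXIV:716120-716284, and snR36, a guide for 18S rRNA, at chrXV:680685-680866. RPR1 lies at chrV:117667-118035 and NME1 at chrXIV:585587-585926. SnR44 lies within RPS22B, a ribosomal protein gene, and snR191 within NOG2, a gene for a ribosome assembly GTPase, so that reads of the host transcript can fall on the same bases. SnR10, at chrVII:345986-346230, shares 216 of its 245 bases with the annotated gene YGL088W.

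Libraries that stood apart come before the results. The summed level of 5 heat-induced genes (HSP26, HSP12, HSP42, HSP104 and SSA4), in TMM-scaled CPM (counts of an RNA relative to the scaled total of the library), was 1460 to 4196 in the 6 libraries at 25 °C and 11881 to 20229 in 5 libraries at 42 °C. In no-tag replicate 1 at 42 °C, the smallest library, it was 2319, inside the range of the 25 °C libraries. The mating-type gene STE2 was at 0 to 7.73 CPM in the 6 libraries numbered 1. It was at 126 to 354 CPM in the 6 numbered 2, so the numbers also separated libraries by STE2 level. The level of STE3, another mating-type gene, did not follow the numbers in this way. It was at 356 and 334 CPM without a tag at 25 °C and at 467 and 299 CPM at 42 °C. With Mex67 it was at 201 and 23.3 CPM, and at 131 and 83.9 CPM, in the same order. In the Npl3 libraries numbered 1 it was at 2.77 CPM at 25 °C and 1.24 CPM at 42 °C, below those numbered 2. SCR1, the RNA of the signal recognition particle, was at 162608 CPM in no-tag replicate 1 at 42 °C and at 11057 to 59301 CPM in the other 11 libraries. The main results against the no-tag control are therefore given with and without its libraries numbered 1.

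The share of reads assigned to the 31 RNAs was larger in the no-tag libraries numbered 1 than in any other library. At 25 °C the share was 14.2% in no-tag replicate 1 and 3.57% in no-tag replicate 2. With Npl3 it was 2.23% and 1.63%, and with Mex67 3.90% and 4.19%. At 42 °C it was 21.3% and 5.46% without a tag, 2.70% and 2.34% with Npl3, and 2.20% and 8.06% with Mex67. All 4 Npl3 libraries thus lay below all 4 no-tag libraries, at each temperature and across them, while the Mex67 libraries at 42 °C lay on both sides of no-tag replicate 2. The group means were 8.87% ± 7.51 without a tag, 1.93% ± 0.425 with Npl3 and 4.04% ± 0.209 with Mex67 at 25 °C (SD, n = 2 in each group). At 42 °C they were 13.4% ± 11.2, 2.52% ± 0.258 and 5.13% ± 4.14 (SD, n = 2). The widest 95% Wilson interval of a library's share was 0.542 percentage points, which covers counting error only, and the SDs of the no-tag groups and of Mex67 at 42 °C were far larger. No untreated input RNA is used here, so less of an RNA in the cells and less of it carried through the immunoprecipitation cannot be told apart.

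The box C/D snoRNAs, which guide ribose methylation and of which 47 were counted, followed them in most libraries. The H/ACA RNAs with RPR1 and NME1 held 1.38 to 2.04 times the counts of the box C/D snoRNAs in 11 libraries. In no-tag replicate 1 at 42 °C they held 5.35 times as many, and the box C/D share was 3.98% there against 3.92% in no-tag replicate 2. The share of the 6 spliceosomal snRNA features with Npl3 was 3.54% and 6.32% at 25 °C and 7.03% and 7.14% at 42 °C, against 1.79% and 2.36% without a tag at 25 °C and 6.53% and 4.26% at 42 °C.

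**Figure D1:**
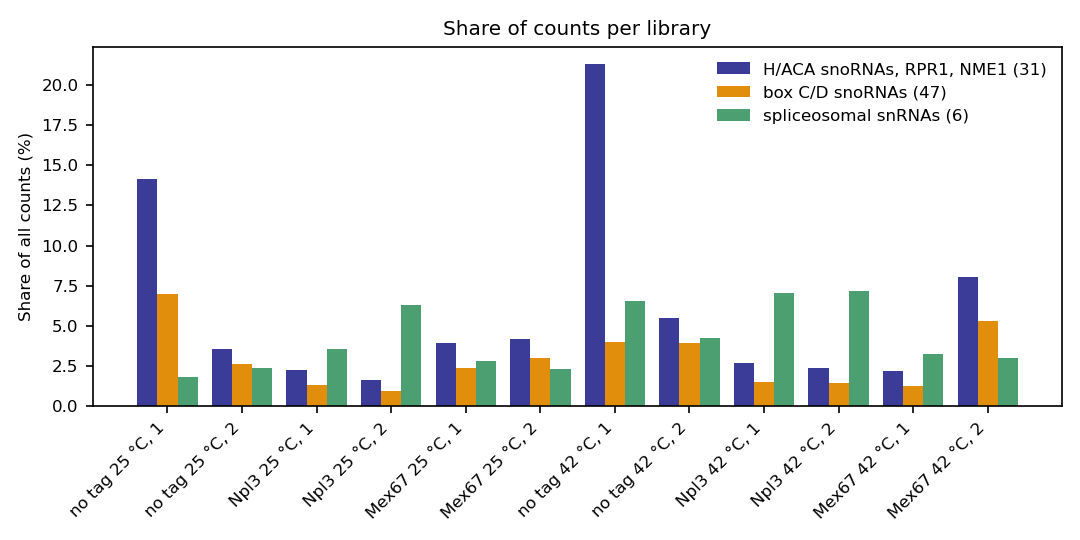
Share of all counts, in percent, taken by the 31 H/ACA, RNase P and RNase MRP RNAs, by 47 box C/D snoRNAs and by 6 spliceosomal snRNA features in each of the 12 libraries (bars; the number after the temperature is the replicate). The 31 RNAs took 14.2% and 21.3% in the no-tag libraries numbered 1 and 1.63% to 8.06% in the other 10.

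Among themselves, the 31 RNAs differed widely in level. Per kilobase of feature and taken as the median over the 12 libraries, snR30 was the highest at 14668 CPM per kb. SnR37 followed at 11529, and snR34, snR83, snR3, snR11 and RPR1 lay between 6245 and 5336 CPM per kb. NME1 was 12th at 3666 CPM per kb, and the 2 lowest were snR161 at 589 and snR10 at 39.5 CPM per kb. Only 2 of the 30 neighbouring pairs kept their order in all 12 libraries, snR37 above snR34 and snR161 above snR10, so most neighbours in the order do not differ beyond their spread over libraries. SnR30 alone held 18.6% to 31.2% of the counts of the 31 RNAs in 11 libraries and 7.06% in no-tag replicate 1 at 25 °C.

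SnR10, a guide for 25S rRNA that is also known for a part in early rRNA processing, was nearly uncounted. It had 6 and 1 counts without a tag at 25 °C, 1 and 10 with Npl3, and 1 and 2 with Mex67. At 42 °C it had 2 and 5, 15 and 14, and 11 and 5 counts in the same order. YGL088W, which covers most of snR10, had 0 counts in all 12 libraries. How the counting treated reads that fall on both features is not given in the sources used here, so the low count of snR10 is not read as a low level.

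**Figure D2:**
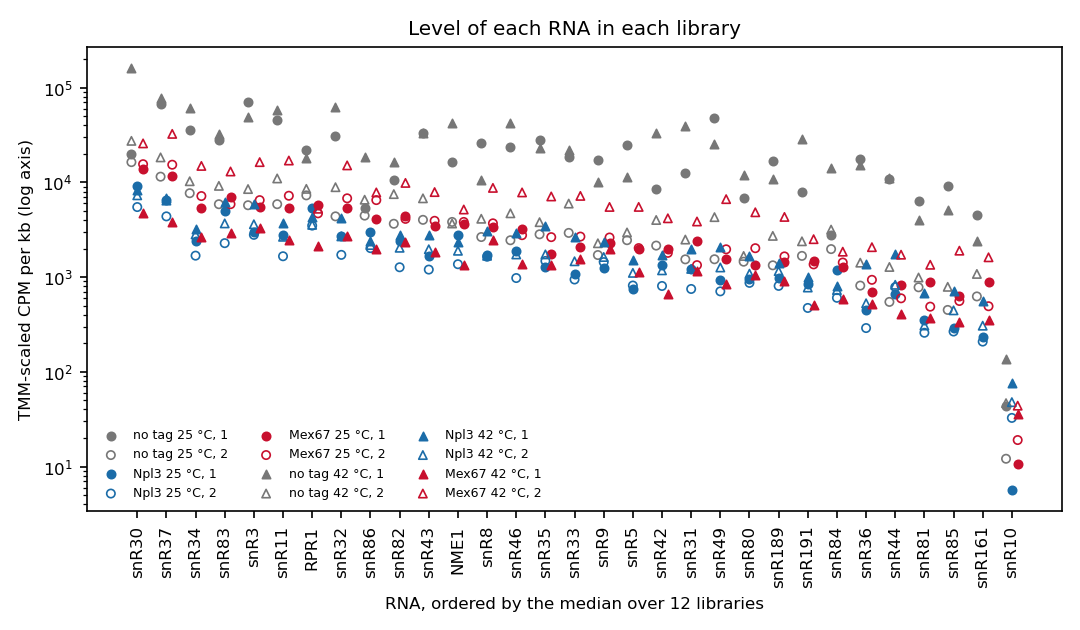
Level of each of the 31 RNAs (horizontal axis, ordered by the median) in each of the 12 libraries, in TMM-scaled CPM per kilobase on a log axis. Colour marks the strain, circles 25 °C, triangles 42 °C, filled symbols replicate 1 and open symbols replicate 2. The no-tag libraries numbered 1 (filled grey) lie at the top for most RNAs, and snR10 lies below all others.

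The first comparison asks which of these RNAs came down with Npl3 above or below the no-tag background at 25 °C. All 31 had a negative fitted log2 change, with a median of −2.99 and a median SE of 1.05, beside a median of 0.00 over all 5245 features tested. In 29 of the 31, both Npl3 libraries lay below both no-tag libraries, the exceptions being snR10 and snR44. Over all features tested 26.9% did so, and 29 of 31 box C/D snoRNAs that passed the filter on low counts. None of the 31 passed an adjusted p of 0.05 in edgeR's quasi-likelihood test with Benjamini-Hochberg adjustment, where 2.4% of all features were called. At an unadjusted p under 0.05 there were 26 of the 31, against 20.6% of all features, and DESeq2 called 18, against 4.3% of its features, all 18 lower with Npl3. The lowest adjusted p among them was 0.0660 in edgeR's test.

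The largest fitted changes at 25 °C belonged to RNAs whose no-tag replicates lay far apart. SnR49 was at 7940 and 254 CPM without a tag and at 154 and 117 CPM with Npl3, which gave the largest fitted change, −4.92 ± 1.54 on the log2 scale (SE; adjusted p = 0.108, edgeR). SnR36 was at 3174 and 148 CPM without a tag and at 81.7 and 52.7 CPM with Npl3 (log2 change −4.63 ± 1.53, adjusted p = 0.129, edgeR). For both, the no-tag libraries did not overlap with the Npl3 libraries, but they differed more from each other than no-tag replicate 2 did from Npl3. SnR37 was at 25804 and 4433 CPM without a tag and at 2537 and 1688 CPM with Npl3 (log2 change −2.84 ± 1.08, edgeR adjusted p = 0.159).

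The long RNAs showed less of that spread. SnR30 was at 12148 and 9910 CPM without a tag and at 5525 and 3325 CPM with Npl3, a fitted log2 change of −1.32 ± 0.90 (edgeR adjusted p = 0.426). SnR86, the longest of the snoRNAs, was at 5366 and 4474 CPM without a tag and at 3028 and 2029 CPM with Npl3 (−0.96 ± 0.74, edgeR adjusted p = 0.481). SnR84 was at 1548 and 1086 CPM without a tag and at 651 and 332 CPM with Npl3 (−1.42 ± 0.73, edgeR adjusted p = 0.291). In these 3 the no-tag replicates lay close together and both lay above both Npl3 libraries, and none passed the test.

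RPR1 and NME1 lay in the same direction. RPR1 was at 8182 and 2690 CPM without a tag and at 1995 and 1290 CPM with Npl3 (log2 change −1.73 ± 0.70, edgeR adjusted p = 0.185). NME1 was at 5602 and 1299 CPM without a tag and at 953 and 465 CPM with Npl3 (−2.28 ± 1.04, edgeR adjusted p = 0.239). For both RNAs the groups did not overlap. SnR10 had the smallest fitted change, −0.50 ± 0.91 (edgeR adjusted p = 0.780), from 1 to 10 counts per library.

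With both no-tag libraries numbered 1 left out, the median over the 31 RNAs at 25 °C was −0.94 in place of −2.99, 29 of 31 lay below 0 and none was called in edgeR's test. That fit has a single no-tag library at each temperature, which is assumed to vary like the libraries of the other groups. Most of the 31 RNAs thus also lay lower with Npl3 than in no-tag replicate 2, by a smaller fold.

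At 42 °C the direction of the 31 fitted values against no tag was again negative throughout, and 2 RNAs passed the test. The median log2 change was −2.59 with a median SE of 1.04, beside 0.10 over all features tested. Of the 31, 2 were called lower and 0 higher, where 7.47% of all features were called in either direction and 0.934% were called lower (edgeR's quasi-likelihood test, Benjamini-Hochberg adjusted p under 0.05). At an unadjusted p under 0.05 there were 21, against 28.1% of all features, and DESeq2 called 17 lower, against 8.83% called in either direction. In 28 of the 31 both Npl3 libraries lay below both no-tag libraries, against 24.5% of all features and 23 of 31 box C/D snoRNAs. SnR9, a 25S rRNA guide, overlapped between the groups, as did snR10 and snR44.

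The 2 called RNAs were snR84 and snR30. SnR84 was at 7826 and 1744 CPM without a tag and at 448 and 401 CPM with Npl3, and fell by 3.49 ± 0.79 on the log2 scale (SE, n = 2; edgeR adjusted p = 0.0256). SnR30 was at 97464 and 16618 CPM without a tag and at 5081 and 4422 CPM with Npl3, and fell by 3.58 ± 0.98 (SE, n = 2; edgeR adjusted p = 0.0454). The groups did not overlap for either RNA, and no-tag replicate 1, the library at 42 °C without raised heat-induced genes, was the highest of all 12 for both. Without both no-tag libraries numbered 1 the changes were −2.05 ± 0.73 (edgeR adjusted p = 0.176) for snR84 and −1.82 ± 0.97 (adjusted p = 0.314) for snR30, and neither call held. Both calls were also lost when any single library of the groups compared was left out. For snR84 the adjusted p was then 0.146 without no-tag replicate 1, 0.169 without no-tag replicate 2, 0.169 without Npl3 replicate 1 and 0.0590 without Npl3 replicate 2 (edgeR). For snR30 it was 0.253, 0.169, 0.281 and 0.116 in the same order. The call of snR30 was lost too when any single library at 25 °C was left out, with an edgeR adjusted p of 0.0552 to 0.0635, and with offsets corrected for feature length (adjusted p = 0.0548).

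The other RNAs described at 25 °C and snR191 did not pass the test at 42 °C. SnR191 had the largest change at 42 °C, from 7943 and 654 CPM without a tag to 277 and 213 CPM with Npl3 (−4.12 ± 1.18, edgeR adjusted p = 0.0565). SnR86 was at 18472 and 6584 CPM against 2433 and 2188 CPM with Npl3 (−2.44 ± 0.77, edgeR adjusted p = 0.0672). NME1 was at 14350 and 1251 CPM against 792 and 644 CPM with Npl3 (−3.43 ± 1.09, edgeR adjusted p = 0.0707). Each of these 3 was lower in both Npl3 libraries than in either no-tag library. RPR1 was at 6741 and 3150 CPM against 1581 and 1313 CPM (−1.77 ± 0.70, edgeR adjusted p = 0.124), and snR37 at 30085 and 7083 CPM against 2643 and 2478 CPM (−2.86 ± 1.08, edgeR adjusted p = 0.110). The fitted values at the 2 temperatures were close for RPR1, −1.73 and −1.77, and for snR37, −2.84 and −2.86. Without both no-tag libraries numbered 1, the median over the 31 RNAs at 42 °C was −1.14 and 30 of 31 lay below 0.

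**Figure D3:**
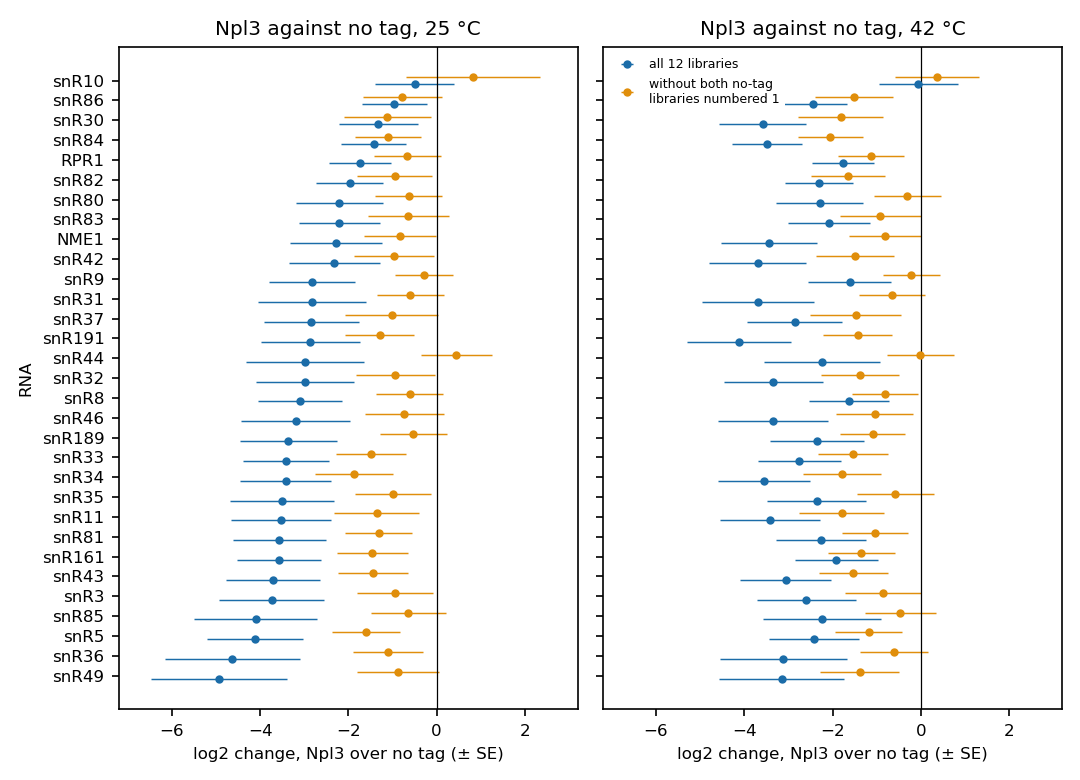
Fitted log2 change of Npl3 over no tag at 25 °C (left) and 42 °C (right) for each of the 31 RNAs, with bars of ± 1 SE, from all 12 libraries (blue) and without both no-tag libraries numbered 1 (orange). All blue points lie below 0, and the orange points, with medians of −0.94 and −1.14, lie nearer to 0 except for snR10.

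Set by role, the classes did not separate. At 25 °C the median log2 change with Npl3 against no tag was −3.54 for the 6 guides of 18S rRNA (range −4.63 to −2.20), −2.99 for the 17 guides of 25S rRNA (−4.12 to −0.50) and −3.17 for the 4 with targets in both (−4.92 to −2.20). At 42 °C the medians were −2.30, −2.86 and −2.33. The ranges of the 3 classes overlapped at both temperatures. Leaving out both no-tag libraries numbered 1 gave medians of −0.82, −0.96 and −0.58 at 25 °C, and of −0.63, −1.48 and −0.70 at 42 °C for the same classes.

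The Mex67 immunoprecipitates lay nearer to the no-tag control. At 25 °C the median log2 change of the 31 RNAs against no tag was −1.92, beside 0.00 over all features, and 30 of 31 lay below 0. At 42 °C it was −1.68, beside 0.13 over all features, and all 31 lay below 0. None was called at either temperature in edgeR's quasi-likelihood test, and no other feature was (0%). At an unadjusted p under 0.05 there were 10 of the 31 at 25 °C, against 3.89% of all features, and 7 at 42 °C, against 11.5%. DESeq2 called 0 at 25 °C, against 0.0155%, and 6 at 42 °C, against 0.729%. Both Mex67 libraries lay below both no-tag libraries for 11 RNAs at 25 °C, against 16% of all features, and for 4 at 42 °C, against 18.8%. The 4 were snR84, snR10, snR30 and RPR1, and a share of 4 in 31 is no higher than that of all features.

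Against no-tag replicate 2 alone there was little left of this difference. Without both no-tag libraries numbered 1 the median at 25 °C was 0.13, with 19 of 31 above 0, and at 42 °C it was −0.17, with 9 of 31 above 0. SnR49 had −3.82 ± 1.46 with Mex67 at 25 °C (edgeR adjusted p = 0.999), from 258 and 324 CPM with Mex67, both just above the 254 CPM of no-tag replicate 2. SnR30 was at 8350 and 9428 CPM with Mex67 at 25 °C, close to no-tag replicate 2 (log2 change −0.31 ± 0.89, edgeR adjusted p = 0.999). SnR86, at 4120 and 6525 CPM with Mex67, was the RNA with a positive value, 0.11 ± 0.73 (edgeR adjusted p = 1.00). For snR49 and snR30 the Mex67 libraries thus lay near no-tag replicate 2, and no-tag replicate 1 lay above them.

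Compared directly, the Mex67 libraries held more of these RNAs than the Npl3 libraries at 25 °C. The no-tag levels are not compared here, but all 12 libraries enter the filter, the scaling and the shared spread of the test. Of the 31, 29 had a positive log2 change, with a median of 1.07 and a median SE of 1.00, beside 0.03 over all features. In 28 both Mex67 libraries lay above both Npl3 libraries, against 28.2% of all features and 22 of 31 box C/D snoRNAs. The 3 exceptions were snR10, snR44 and RPR1. None was called by edgeR's quasi-likelihood test, which called 2.8% of all features. DESeq2 called 0 of the 31, against 4.65% of its features, and 0 had an unadjusted p under 0.05, against 23.5%. The lowest adjusted p was 0.319, that of snR161, a guide for 18S rRNA, which was at 144 and 79.3 CPM with Mex67 and at 37.4 and 33.5 CPM with Npl3 (1.65 ± 0.93).

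By RNA, snR37 was at 4468 and 5928 CPM with Mex67 (log2 change 1.30 ± 1.02 over Npl3, edgeR adjusted p = 0.466). SnR30 had a log2 change of 1.01 ± 0.90 over Npl3 (edgeR adjusted p = 0.526). NME1 was at 1243 and 1299 CPM with Mex67 (0.84 ± 1.00, edgeR adjusted p = 0.644), above both Npl3 libraries. RPR1, at 2150 and 1737 CPM with Mex67 against 1995 and 1290 CPM with Npl3, overlapped between the groups and had 0.24 ± 0.68 (edgeR adjusted p = 0.855). RPR1 was thus one of few members without a clear order between Mex67 and Npl3.

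At 42 °C the Mex67 replicates disagreed over these RNAs. The fitted median over Npl3 was 0.99, beside −0.04 over all features, and 28 of 31 were positive. Yet both Mex67 libraries lay above both Npl3 libraries for 0 of the 31 RNAs, against 23.5% of all features, and for 0 of 31 box C/D snoRNAs. None was called in edgeR's quasi-likelihood test, which called 3.93% of all features. At an unadjusted p under 0.05 there were 0 of the 31, against 23.2%, and by DESeq2 0, against 4.27%. SnR37 was at 1482 CPM in Mex67 replicate 1 and 12543 CPM in replicate 2, and snR30 at 2901 and 15622 CPM. SnR86 was at 1985 and 7859 CPM, snR84 at 325 and 1020 CPM, snR49 at 139 and 1097 CPM and snR36 at 93.8 and 376 CPM. For each of these 6, replicate 1 lay below both Npl3 libraries at 42 °C and replicate 2 above both. Over the 31 RNAs the median of the log2 ratio of replicate 1 to replicate 2 was −2.18 with 0 of 31 above 0, beside 0.02 over all features. It was −0.18 in Mex67 at 25 °C, 0.51 and 0.55 in Npl3 at 25 °C and 42 °C.

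The no-tag replicates differed in the opposite sense and by more. The log2 ratio of replicate 1 to replicate 2 was above 0 for all 31 RNAs at both temperatures, with a median of 2.84 at 25 °C and 2.40 at 42 °C, beside 0.03 and −0.22 over all features. At 25 °C the ratio was lowest for snR86, 0.26, and highest for snR49, 4.95. It went with length there: the rank correlation with feature length over the 31 RNAs was −0.694, given as a description since all points come from the same pair of libraries. At 42 °C the order was another one, from RPR1 at 1.10 to snR31, a guide for 18S rRNA, at 3.98, and the rank correlation with length was −0.098. The replicate ratios of the Npl3 groups also went with length, with rank correlations of 0.523 at 25 °C and −0.603 at 42 °C, while those of Mex67 were 0.060 and 0.118. SnR30, at 606 bases, shows the change between the pairs, with 12148 and 9910 CPM at 25 °C and 97464 and 16618 CPM at 42 °C. Whether the strain, the beads or the library preparation moved with these values was not tested, since the labels do not assign them.

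**Figure D4:**
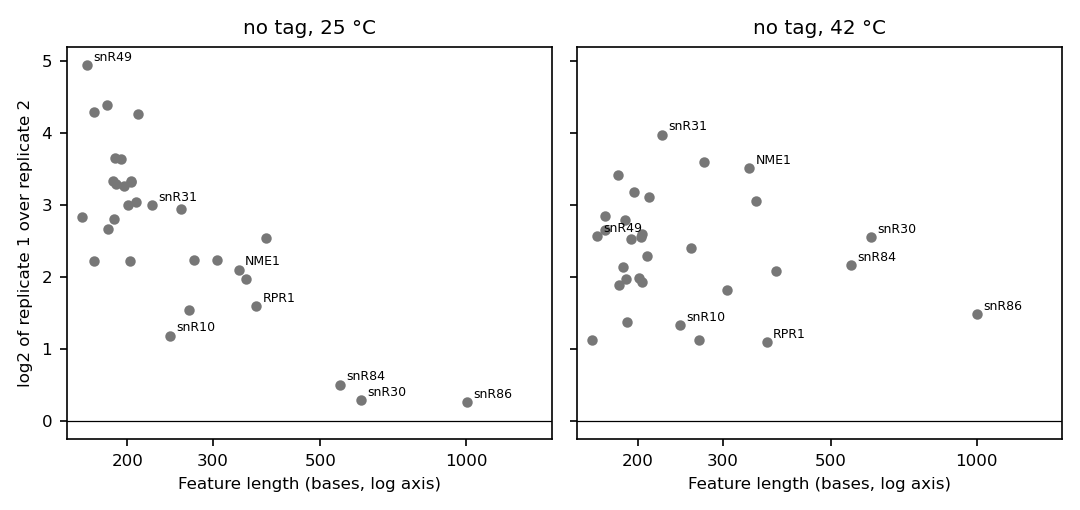
Log2 ratio of no-tag replicate 1 to no-tag replicate 2 for each of the 31 RNAs (points) against feature length in bases on a log axis, at 25 °C (left) and 42 °C (right), with 8 RNAs named. All points lie above 0. At 25 °C the 3 longest RNAs, snR84, snR30 and snR86, lie lowest, and at 42 °C they do not.

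The heat comparisons ask how the content of each immunoprecipitate differed between 42 °C and 25 °C. The fitted median log2 change of the 31 RNAs was 0.30 without a tag, 0.59 with Npl3 and 0.55 with Mex67, beside −0.07, 0.10 and 0.05 over all features. Values above 0 were seen for 19, 28 and 27 of the 31. With the culture as a block the Mex67 median was 0.17, with 22 above 0. With offsets corrected for feature length, the medians with Npl3 and Mex67 were 0.039 and 0.13, with 20 above 0 in each. None of the 31 was called in the 3 comparisons in edgeR's quasi-likelihood test, and 0% of all features were called in each. At an unadjusted p under 0.05 there were 2 without a tag, snR84 (1.85 ± 0.74) and snR30 (2.37 ± 0.93), both with an edgeR adjusted p of 1.00, against 2.1% of all features. There were 0 with Npl3, against 11%, and 0 with Mex67, against 10.2%. DESeq2 called 0 of the 31 in each, against 0%, 0.326% and 0.202% of its features. Without both no-tag libraries numbered 1 the no-tag median was 0.70 with 30 of 31 above 0, and the values of snR84 and snR30 were 0.69 and 0.75. Both libraries at 42 °C lay above both at 25 °C for 15 RNAs with Npl3, against 26.4% of all features and 12 of 31 box C/D snoRNAs. They did so for 4 RNAs without a tag, against 9.72%, and for 1 with Mex67, snR10, against 21.9%.

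With Npl3, snR36 was at 250 and 96.3 CPM at 42 °C (log2 change 1.37 ± 1.36, edgeR adjusted p = 0.724), above its levels at 25 °C in both libraries. RPR1 had −0.18 ± 0.68 in the same comparison (edgeR adjusted p = 0.940), and its levels at the 2 temperatures overlapped. Whether the heat change differed between strains was tested as a difference of differences. The median of the difference in log2 heat change was 0.12 for Npl3 minus no tag, 0.20 for Mex67 minus no tag and −0.07 for Mex67 minus Npl3. None of the 31 was called in these 3 tests by edgeR's quasi-likelihood test or by DESeq2, and 0% of all features were called by either tool. None reached an unadjusted p of 0.05 in edgeR, against 2.92%, 3.55% and 1.3% of all features in that order. With the culture as a block, the median of Mex67 minus Npl3 was −0.49 with 0 of 31 above 0.

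Each culture was divided between the temperatures, so the heat change can also be set out by culture, taking libraries of a strain with the same number as coming from one culture. The median log2 change of the 31 RNAs was 0.22 and 0.69 in the no-tag cultures, 0.70 and 0.52 in the Npl3 cultures, and −1.004 and 1.23 in the Mex67 cultures. In Mex67 culture 1, 30 of 31 RNAs were lower at 42 °C, and in Mex67 culture 2 all 31 were higher. The box C/D snoRNAs had medians of −1.76 and 0.11, 0.50 and 0.34, and −0.78 and 1.11 in the same order, so they were on the other side of 0 in no-tag culture 1 only. The 42 °C library of that culture is the one without raised heat-induced genes, so its values may not describe a heat change. Of the 31 RNAs, snR10 alone was above 0 in all 6 cultures, at 1 to 15 counts per library. There were 13 above 0 in 5 cultures, 15 in 4 and 2 in 3.

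The 2 RNAs above 0 in 3 of 6 cultures were RPR1 and NME1. RPR1 had −0.28 and 0.23 without a tag, −0.34 and 0.03 with Npl3, and −1.43 and 0.16 with Mex67. It was the lowest of the 31 in Npl3 culture 2 and in Mex67 culture 2, and among the 5 lowest in 5 of the 6 cultures. NME1 had 1.36 and −0.05 without a tag, −0.26 and 0.47 with Npl3, and −1.43 and 0.44 with Mex67. Its levels at 42 °C with Mex67 were 460 and 1758 CPM, and those of RPR1 were 794 and 1943 CPM. Neither RPR1 nor NME1 passed the edgeR test between temperatures in any strain. Low values with Npl3 and Mex67 were not particular to these 2 RNAs. SnR84 had 2.34 and 0.68 without a tag, −0.54 and 0.27 with Npl3, and −1.09 and 0.38 with Mex67. For snR86 the values were 1.78 and 0.56, −0.32 and 0.11, and −1.05 and 0.27 in the same order.

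**Figure D5:**
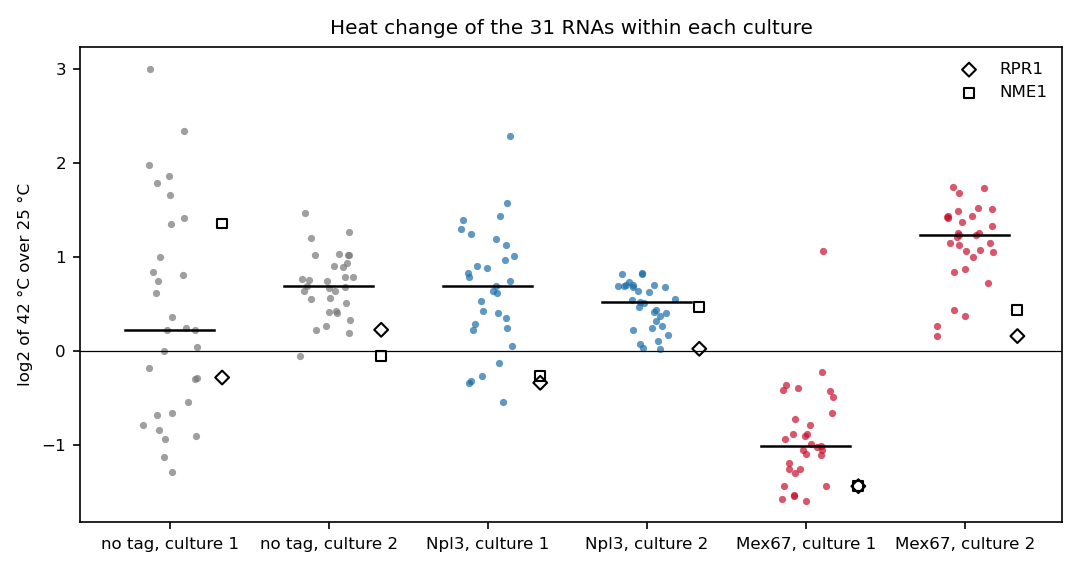
Log2 ratio of the level at 42 °C to that at 25 °C within each of the 6 cultures for the 31 RNAs (points), with the median as a line and RPR1 (diamonds) and NME1 (squares) repeated beside the points. The medians are 0.22, 0.69, 0.70, 0.52, −1.004 and 1.23 from left to right, and the Mex67 cultures lie on opposite sides of 0.

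The messages of the proteins that these RNAs work with had other patterns. Of 6 messages for H/ACA core and assembly proteins (CBF5, NHP2, NOP10, GAR1, SHQ1 and NAF1), all were tested. Their median log2 change with Npl3 was 0.93 at 25 °C and 0.30 at 42 °C, on the other side of 0 from the 31 RNAs, and 0.66 and 0.47 without both no-tag libraries numbered 1. With all libraries, 5 of the 6 were above 0 at each temperature. CBF5 was the lowest, at −0.064 and −0.77, and NOP10 the highest, at 1.23 and 1.39. NOP10, the message of a core protein, was the one called in any comparison by edgeR's quasi-likelihood test. It fell by 1.94 ± 0.43 with Mex67 against Npl3 at 25 °C (edgeR adjusted p = 0.0386) and by 1.83 ± 0.42 at 42 °C (edgeR adjusted p = 0.0410). Neither call held with offsets corrected for feature length, where 0 features were called in these comparisons. Both calls were lost too without both no-tag libraries numbered 1, although no-tag levels are not compared here. The call at 42 °C was also lost in a fit of only the groups compared, again with 0 features called. NOP10 was at 41.2 and 79.3 CPM with Mex67 and at 174 and 290 CPM with Npl3 at 25 °C, the reverse order of most of the snoRNAs. Of 11 messages for RNase P and RNase MRP proteins, 10 were tested. POP6, for a subunit shared by both enzymes, was called higher with Npl3 than without a tag at 42 °C (edgeR adjusted p = 0.0222), from 116 and 50 counts against 0 and 3, for which no fold is given. It was not called without both no-tag libraries numbered 1 (edgeR adjusted p = 0.107). It fell by 2.79 ± 0.58 with Mex67 against Npl3 at 42 °C (edgeR adjusted p = 0.0382), a call that was lost in the same settings as that of NOP10 at 42 °C. POP6 was at 144 and 41.8 CPM with Npl3, at 0 and 6.86 CPM without a tag and at 11.9 and 15.1 CPM with Mex67, and was the one message of the 10 called in any comparison.

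The host messages of the intronic snoRNAs were not alike. RPS22B was at 429 and 160 CPM without a tag, 600 and 608 CPM with Npl3, and 162 and 205 CPM with Mex67 at 25 °C. SnR44 inside it was at 2283 and 115, 138 and 165, and 175 and 126 CPM in the same libraries, and is one of the RNAs whose Npl3 and no-tag libraries overlapped. NOG2 was at 79.7 and 127, 220 and 68.7, and 170 and 145 CPM, and snR191 inside it at 2175 and 459, 234 and 129, and 410 and 373 CPM. The part of host reads in either snoRNA count was not tested.

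Among the other nuclear RNA classes, the box C/D snoRNAs were closest to the 31 RNAs. Their median log2 change with Npl3 against no tag, over the 31 that passed the filter, was −2.61 at 25 °C and −1.17 at 42 °C, and −1.42 and −1.16 without both no-tag libraries numbered 1. With Mex67 it was −1.92 at 25 °C and −0.18 at 42 °C. The values of the 31 H/ACA, RNase P and RNase MRP RNAs at 42 °C were −2.59 and −1.68, and the difference between the classes was not tested. Without both no-tag libraries numbered 1, the value of the 31 RNAs with Npl3 at 42 °C, −1.14, was near that of the box C/D snoRNAs. With Mex67 at 42 °C the medians were then −0.17 for the 31 RNAs and −0.29 for the box C/D snoRNAs. At 25 °C they were 0.13 and −0.44. Of the spliceosomal snRNAs, snR19, the U1 snRNA, was at 20593 and 36566 CPM with Npl3 and at 7844 and 6466 CPM without a tag at 25 °C, a log2 change of 2.00 ± 0.67 (edgeR adjusted p = 0.114). The other tested snRNAs did not share its direction throughout: U4 (snR14) had −1.97, U6 (snR6) −3.84 and U2 (LSR1) 0.27 at 25 °C, and −1.64, 0.34 and −1.51 at 42 °C, and none of the 4 passed the test at either temperature. The values of U6 and U4 at 25 °C rest mainly on no-tag replicate 1. U6 was at 1842 and 53.3 CPM without a tag and at 59.5 and 72.7 CPM with Npl3, above no-tag replicate 2. U4 was at 618 and 112 CPM without a tag and at 77.5 and 109 CPM with Npl3. At an unadjusted p under 0.05 in edgeR there were 3 of the 4 at 25 °C, U1 higher and U4 and U6 lower, against 20.6% of all features. At 42 °C there was 1, U1, against 28.1%.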

How the data were processed

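The deposited tables held raw read counts per annotated feature, 1 table per library. Per the submitters' processing notes, the tools were CASAVA 1.8.2 and STAR, then featureCounts (Subread 1.5.0-p1), with DESeq2 also named, and the build was R64; the strand setting and the handling of multiply mapped and overlapping reads are not given in the sources used here. Per the labels' protocols, 500 ng of RNA was fragmented without rRNA depletion or mRNA enrichment, after immunoprecipitation for 4 h.

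From these counts, edgeR 4.0.16 in R 4.3.3 was used (glmQLFit with robust estimation, glmQLFTest, TMM scaling, filterByExpr with 10 counts and 15 in total) on all 12 libraries, in a model of 6 group means that leaves 6 residual degrees of freedom. Of 7126 features, 5245 passed the filter, among them all 31 RNAs described. Benjamini-Hochberg adjustment at 0.05 was applied over all features in each of 12 comparisons. The SE was obtained as the absolute log2 change over the root of its F value. CPM uses TMM-scaled totals, and log2 values per library add a prior count of 2. Nothing in the labels says that replicates came from separate transformants or days, so p-values measure the spread between these samples. With 2 libraries per group, the precision is limited by their number.

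Symbols, lengths and coordinates came from the RefSeq gene table of R64, in which 6048 features were matched by locus tag, 121 by symbol and 957 not at all. Members, lists and tests were chosen with earlier results of these data known. Values per library are given for snR30, snR10, RPR1, NME1, the 3 members of highest mean CPM, members called in any comparison, and the 2 with the largest and 2 with the smallest change with Npl3 at 25 °C. The results were recomputed with RLE size factors, DESeq2 1.42.0, total counts, scaling on protein-coding genes, no filter, a mean of at least 50 counts, length-corrected offsets (lowess, span 0.4), only the groups compared, replicate blocks, leaving out each library, and leaving out both no-tag libraries numbered 1. Each culture was divided between the temperatures, per the labels' protocols. Deviations of same-numbered libraries correlated at 0.266, 0.114 and 0.601 over 2247 genes within the no-tag, Npl3 and Mex67 strains. Between strains they correlated at −0.174 to 0.455, a range that overlaps these values, so the correlations do not settle the pairing. The culture was used as a block for heat in a recomputation only, and the main heat tests have no block.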

Additional observations from a re-analysis of the deposited data

How the results depend on the processing

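Of the 31 RNAs, the number called lower with Npl3 at 25 °C was 0 as reported, 3 with total counts, 18 with DESeq2 and 1 with only the groups compared. At 42 °C it was 2 as reported, 5 with total counts, 4 without the low-count filter, 4 with length-corrected offsets (without snR30), 17 with DESeq2, 20 with only the groups compared and 0 without both no-tag libraries numbered 1. With Mex67 at 42 °C it was 0, and 6 with DESeq2. The median log2 change without both no-tag libraries numbered 1 was −0.94 for Npl3 and 0.13 for Mex67 against no tag at 25 °C, where snR10 had 0.83 with Npl3 and snR49 had 0.19 with Mex67. With length-corrected offsets it was −4.28 for Npl3 against no tag at 42 °C, 2.75 and 2.85 for Mex67 against Npl3 at 25 °C and 42 °C, and 0.039 for the heat change with Npl3. The median difference in heat change, Npl3 minus no tag, was −0.015 with scaling on protein-coding genes, −0.46 with length-corrected offsets, −0.025 with only the groups compared and −0.21 without both no-tag libraries numbered 1. For Mex67 minus no tag it was −0.30 with length-corrected offsets, −0.35 with the replicate block (culture) and −0.28 without both no-tag libraries numbered 1. For Mex67 minus Npl3 it was 0.053, 0.024, 0.0018 and 0.0026 with scaling on protein-coding genes, length-corrected offsets, only the groups compared and without both no-tag libraries numbered 1, and −0.49 with the replicate block (culture). The directions of these 3 differences are therefore not settled. The replicate block changed no call among the 31 RNAs. The share of counts without snR30 was 1.48% and 1.99% with Npl3 at 25 °C and 42 °C and 3.11% with Mex67 at 25 °C, and the ratio to the counts left after removing all snoRNAs, snRNAs, RPR1, NME1, SCR1 and TLC1 was 4.70% with Mex67 at 25 °C and 2.91% with Npl3 at 42 °C.

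Leaving out 1 library at a time, 0 to 4 RNAs were called for Npl3 at 25 °C and 0 to 9 at 42 °C, with medians of −3.88 to −0.99 and −3.54 to −1.20. For Mex67 against no tag the medians were −2.73 to 0.13 and −3.33 to −0.15, and against Npl3 0.86 to 1.34 and −0.36 to 1.83. Those of the heat change were −1.32 to 2.30 without a tag, 0.27 to 0.86 with Npl3 and −0.90 to 1.30 with Mex67, and those of its differences −1.61 to 1.81, −1.63 to 1.88 and −1.46 to 0.80. Among single RNAs, the value ran from −2.27 to 0.78 for snR10 with Npl3 at 25 °C. With Mex67 at 25 °C it ran from −4.77 to 0.19 for snR49 and from −0.25 to 0.41 for snR86. For RPR1 it ran from −0.040 to 0.59 in Mex67 against Npl3 at 25 °C and from −0.47 to 0.16 in the heat change with Npl3. Depth limits snR10, with 1 to 15 counts per library, and the smallest library.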
